A study of Homo sapiens with 24 samples.

Results

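The 10 genes described here are 7 matrix metalloproteinases (MMP1, MMP2, MMP7, MMP9, MMP10, MMP14 and MMP15) and 3 tissue inhibitors of metalloproteinases (TIMP1, TIMP2 and TIMP3). They were chosen by name, from the protein families they belong to, among 31204 named genes on the array, and each was measured by 1 probe. RNA of 2 established human hepatocellular carcinoma lines, PLC/PRF/5 and SNU-449, was hybridised to 24 one-colour Agilent arrays. The cultures of each line formed 4 groups of 3, grown independently: untreated cells, cells given TGFβ1 at 1 ng/mL, cells given 10 µM galunisertib (LY2157299, an inhibitor of the TGFβ type I receptor kinase), and cells given both, and treatment lasted 16 h after an overnight serum starvation. Each line stands for 1 tumour, and because whole cultures were profiled, fewer cells expressing a gene and less RNA per cell cannot be told apart.

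Matrix metalloproteinases are zinc-dependent enzymes, secreted or held at the cell surface, that cut collagens, gelatins, proteoglycans and other proteins outside the cell. They are made as inactive precursors and are held in check by the TIMPs, which bind the active site. In the liver they take part in matrix turnover during fibrosis and in invasion by tumour cells, and TGFβ is known to act on several of these genes through SMAD proteins and AP-1.

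The array carries 62976 spots. The 75th percentile of an array's signals, by which each array was scaled, lay between 145 and 261 intensity units in PLC/PRF/5 and between 195 and 262 in SNU-449, and 41.6% to 49.6% of spots were well above background. Levels are given as log2 of the signal over that percentile, so 0 is the level of the 75th percentile, and values under -4.13 were set to this floor. Replicate 1, 2 and 3 of every group lay on 3 different slides scanned on 1 day, and arrays of cells given TGFβ always took the second row of a slide, just as each line and galunisertib always took the same columns, so position on the slide cannot be told apart from TGFβ, galunisertib or the line. A gene passed where limma's Benjamini-Hochberg adjusted p over all genes tested was below 0.05, and testing was limited to genes whose probe stood well above background on all arrays of 1 or more groups. Known TGFβ targets checked the labels. TGFβ raised PMEPA1 by 1.39 and SMAD7 by 0.65 (log2) in SNU-449, whereas in PLC/PRF/5 it raised PMEPA1 by 2.59, SKIL by 1.63 and SMAD7 by 0.80, while galunisertib added to TGFβ lowered these genes in each line. All 8 hepatocyte genes looked at were well above background in untreated PLC/PRF/5 and lower in untreated SNU-449, where 5 were still well above background and ALB, APOB and TF were not. Of the leukocyte and endothelial markers, CD14, PTPRC, CDH5 and VWF were well above background on 2 or 3 of the 3 untreated arrays of each line, with mean levels between -3.26 and -2.27, while MPO and PECAM1 were so on none of the 24 arrays. The summed signal of the 4 leukocyte markers was at most 0.493 and that of the 3 endothelial markers at most 0.340 times the 75th percentile on any array, and their part in the results was not tested.

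The untreated lines carried different sets of these genes. Of the 10 genes, 8 passed between the lines: TIMP1, TIMP2, MMP1, MMP7 and MMP14 were higher in SNU-449, and MMP9, MMP15 and TIMP3 were higher in PLC/PRF/5. Among all 17902 genes tested over the 24 arrays, 68.5% passed in this comparison, so a large share of passing genes is usual here. MMP1, MMP7, MMP14 and TIMP3 entered this test through the line where they were well above background. In the other line all untreated values of these genes were set to the floor, which has no spread. The SEs and adjusted p of these genes therefore understate the uncertainty, and their passing is a description.

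The largest difference was that of TIMP1, a secreted inhibitor of most MMPs that also acts as a growth factor. Its levels in the 3 untreated SNU-449 cultures were 4.0, 3.98 and 4.04, and those in untreated PLC/PRF/5 were -2.02, -2.56 and -2.44. The groups did not overlap, and SNU-449 carried 81.2-fold more TIMP1 signal (log2 difference 6.34, SE 0.11, limma adjusted p = 1.29e-20). TIMP2, which besides inhibiting MMPs helps MMP14 to activate pro-MMP2, had levels of 6.34, 6.14 and 6.43 in SNU-449 and of 3.74, 3.69 and 3.79 in PLC/PRF/5. All SNU-449 values lay above all PLC/PRF/5 values, a difference of 5.91-fold (log2 2.56, SE 0.36, limma adjusted p = 3.75e-06). TIMP3, the inhibitor that stays bound to the matrix, went the other way, with levels of -2.47, -2.03 and -2.35 in PLC/PRF/5, while all 12 SNU-449 arrays were at the floor. The excess in PLC/PRF/5 was at least 3.60-fold, where the bound sets the PLC/PRF/5 mean against the weakest signal called well above background (log2 difference -1.85, SE 0.19, limma adjusted p = 3.31e-08).

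Among the enzymes, MMP7 (matrilysin, a small MMP without the hemopexin domain) and MMP14 (MT1-MMP, anchored in the membrane, which cuts collagen and activates pro-MMP2) separated the lines most. MMP7 levels in untreated SNU-449 were -0.09, 0.39 and 0.42, and those of MMP14 were -0.23, -0.07 and -0.25. Neither gene was well above background in untreated PLC/PRF/5, so that the excess in SNU-449 was at least 18.6-fold for MMP7 and 13.9-fold for MMP14 (limma adjusted p = 1.49e-18 and 3.56e-17). MMP1, the interstitial collagenase, was at the floor on all 12 PLC/PRF/5 arrays and exceeded it in untreated SNU-449 by at least 2.45-fold (limma adjusted p = 1.66e-08). In contrast, MMP15 (MT2-MMP, another membrane-bound member) reached 1.77, 1.41 and 1.42 in PLC/PRF/5 against -0.90, -0.77 and -0.83 in SNU-449, which is 5.15-fold higher in PLC/PRF/5 (log2 difference -2.37, SE 0.14, limma adjusted p = 5.58e-12). MMP9, the larger gelatinase, was 2.23-fold higher in PLC/PRF/5 (log2 difference -1.15, SE 0.18, limma adjusted p = 8.58e-06), with levels of -1.19, -1.21 and -1.40 against -2.92, -2.0 and -2.35. The smaller gelatinase MMP2 and the stromelysin MMP10 were not well above background in untreated PLC/PRF/5 and on 2 and 0 of the 3 untreated SNU-449 arrays, and neither passed (limma adjusted p = 0.0978 and 0.0758). MMP2 passed without untreated SNU-449 culture 2 or 3 (limma adjusted p = 0.0335 and 0.0207), and MMP10 without culture 1 (limma adjusted p = 0.0116). MMP2 and MMP10 entered this test only through SNU-449 cells given TGFβ, and all their untreated PLC/PRF/5 values were set to the floor. These adjusted p therefore understate the uncertainty, and no difference between the lines is drawn from them.

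**Figure D1:**
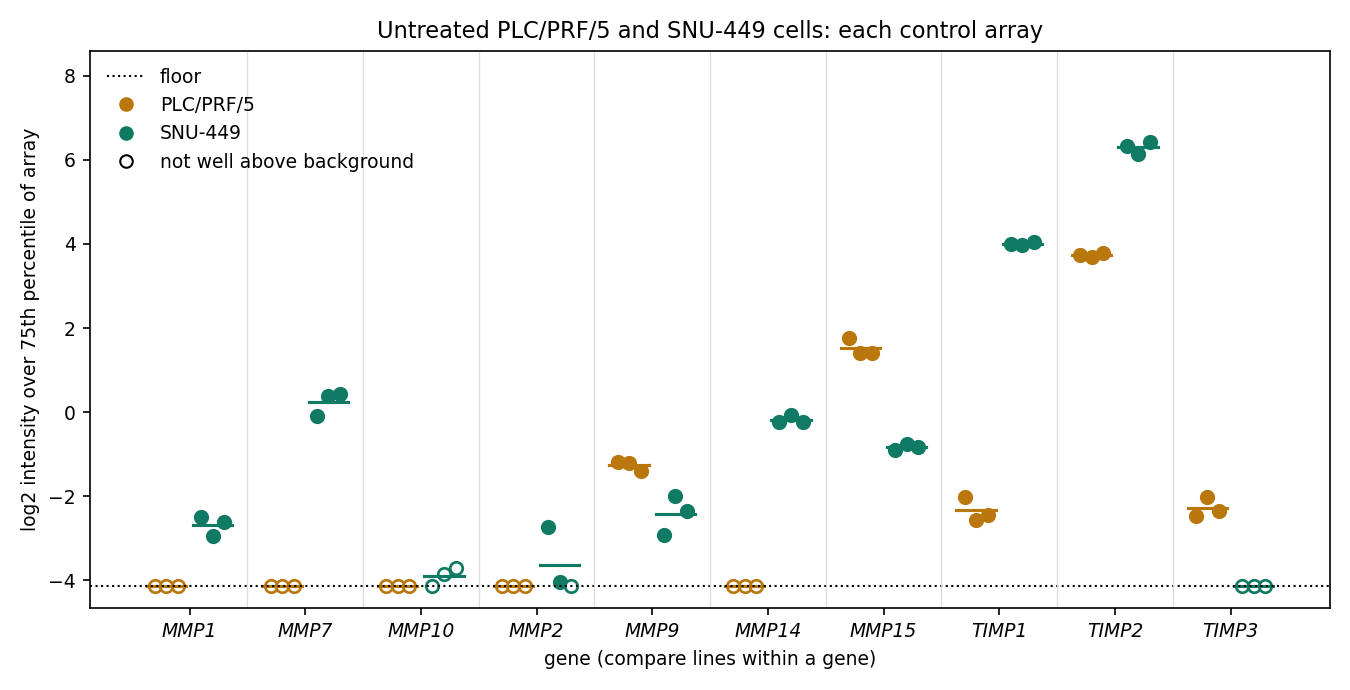
Levels of the 10 genes on the 6 arrays of untreated cells, on a log2 scale relative to each array's 75th percentile. Points are single cultures, bars are means of 3, open points were not well above background and the dotted line is the floor at -4.13. The TIMP1 points of SNU-449 lie near 4.0 and those of PLC/PRF/5 between -2.56 and -2.02, and MMP15, MMP9 and TIMP3 lie higher in PLC/PRF/5.

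Marker genes moved with this difference as well. The summed signal of 8 hepatocyte genes was 725 to 1017 times the 75th percentile in untreated PLC/PRF/5 and 1.77 to 1.94 times in untreated SNU-449, and that of 6 mesenchymal genes was 167 to 195 times and 569 to 651 times. Of the mesenchymal genes, 5 were higher in SNU-449 and FN1 was lower. Their part in the difference of the MMP and TIMP genes was not tested.

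In SNU-449, TGFβ raised 3 of the 9 genes tested, namely MMP10, MMP1 and MMP14, and lowered none. Across all 16101 genes tested in this line 10.5% passed. MMP10 and MMP2 were tested because their TGFβ arrays were well above background, so the count is a description, and with no such filter 3 of 10 passed. TIMP3 was at the floor on every SNU-449 array and was not tested.

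MMP10 (stromelysin-2), which degrades proteoglycans and fibronectin and can activate other pro-MMPs, had the largest change. Its levels in the untreated cultures were -4.13, -3.86 and -3.71, none of them well above background, and rose with TGFβ to -1.38, -1.71 and -1.58. Every TGFβ culture lay above every untreated culture. The rise was at least 4.84-fold (fitted log2 change 2.35, SE 0.15, limma adjusted p = 1.05e-05), and within the 3 slides the change ranged from 2.13 to 2.76. The fit includes the 3 arrays given galunisertib alone, all at the floor without spread for MMP10. Its SE and adjusted p in this line therefore understate the uncertainty.

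MMP1 (collagenase-1), which opens the triple helix of fibrillar collagens, followed. Its levels were -2.50, -2.94 and -2.61 in untreated cells and -1.02, -1.21 and -1.0 with TGFβ, again without overlap. The change was 3.05-fold (log2 1.61, SE 0.19, limma adjusted p = 0.000413), and 1.48 to 1.73 within slides.

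The probe of MMP1 is printed as 10 spots on every array, which gives a second view of its precision within an array. In untreated SNU-449 the mean spot intensities were 35.1, 32.2 and 36.5, and single spots ran from 25.4 to 45.0. With TGFβ the means were 129, 97.8 and 122, and single spots ran from 88.6 to 139. No spot of a TGFβ array was thus as dim as the brightest spot of an untreated one. The spots of 1 array share its RNA and were averaged before any test.

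**Figure D2:**
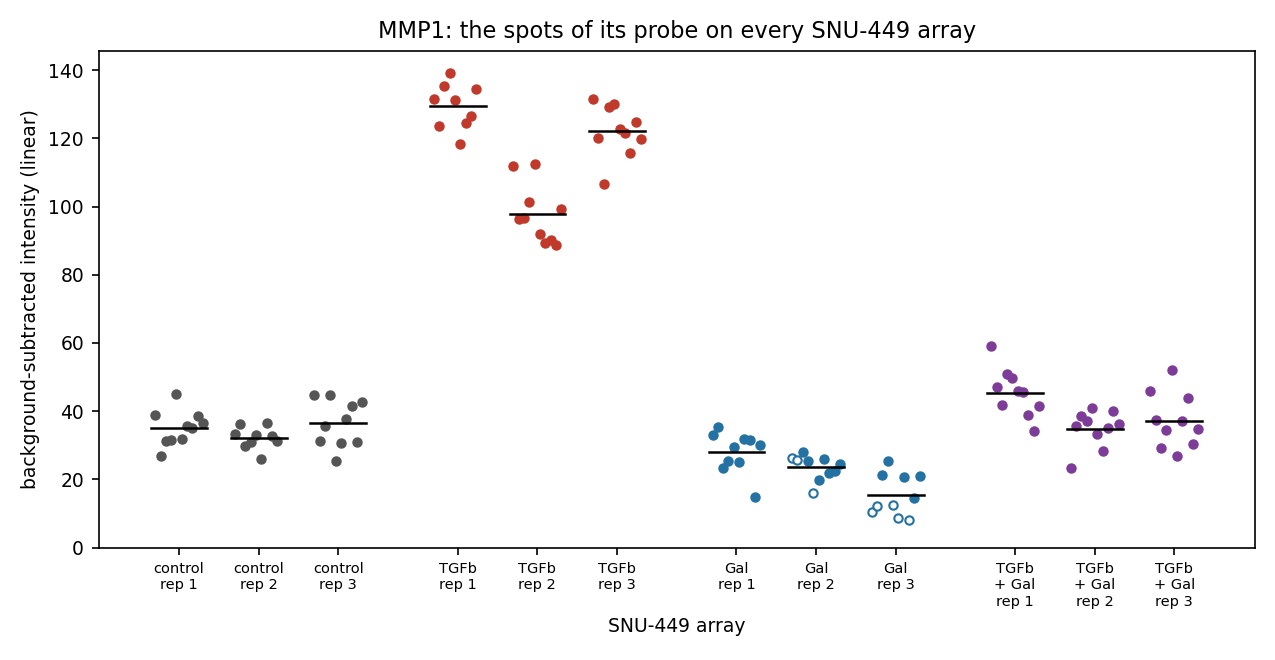
Intensity of each MMP1 spot on the 12 SNU-449 arrays, on a linear scale in scanner units, grouped by treatment and replicate. The spots of the TGFβ arrays lie between 88.6 and 139 and those of the untreated arrays between 25.4 and 45.0.

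MMP14 changed less. Its levels were -0.23, -0.07 and -0.25 in untreated cells and 0.41, 0.27 and 0.45 with TGFβ. The groups did not overlap, and the change was 1.47-fold (log2 0.56, SE 0.10, limma adjusted p = 0.00458). With arrays scaled to their median the MMP14 call was lost (adjusted p = 0.112). MMP15 levels went from -0.90, -0.77 and -0.83 to -0.20, -0.28 and -0.39. These groups did not overlap either, but the gene missed the threshold in the fit over the 12 arrays (log2 change 0.54, SE 0.16, limma adjusted p = 0.0564).

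The remaining genes did not pass with TGFβ in SNU-449. MMP2 levels were scattered, with -2.74, -4.05 and -4.13 in untreated cells and -3.50, -3.12 and -2.47 with TGFβ (log2 change 0.61, SE 0.35, limma adjusted p = 0.331). Without the first untreated culture, the highest of the group, the MMP2 change was 1.06 and passed (limma adjusted p = 0.0275). MMP7 and MMP9 changed by 0.16 and -0.08. The inhibitors TIMP1 and TIMP2 changed by -0.02 (SE 0.09) and -0.10 (SE 0.48), so a change in TIMP2 was measured far less precisely than one in TIMP1.

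Of the 9 MMP genes that lie side by side on chromosome 11, in the order MMP7, MMP20, MMP27, MMP8, MMP10, MMP1, MMP3, MMP12 and MMP13, only MMP7, MMP10 and MMP1 were well above background on any SNU-449 array, on 12, 3 and 11 arrays respectively. The 3 arrays of MMP10 were those of cells given TGFβ alone. MMP10 and MMP1 are direct neighbours in that order, and MMP7 lies at its end. The promoters of MMP10 and MMP14, which rose with TGFβ, and of MMP7, which did not pass, are shown to set the bases before their start sites side by side. RefSeq's promoter table held 6 of the 10 genes, without MMP1. Each sequence is the 250 bases before the start of the gene in GRCh38.p14, 5′ to 3′ on the gene's strand, from chr11:102780629-102780878 (minus strand) for MMP10, chr11:102530748-102530997 (minus strand) for MMP7 and chr14:22836335-22836584 (plus strand) for MMP14. Capitals mark matches to the AP-1 motif TGANTCA and to the TATA box letters TATAAA, searched on both strands.
MMP10: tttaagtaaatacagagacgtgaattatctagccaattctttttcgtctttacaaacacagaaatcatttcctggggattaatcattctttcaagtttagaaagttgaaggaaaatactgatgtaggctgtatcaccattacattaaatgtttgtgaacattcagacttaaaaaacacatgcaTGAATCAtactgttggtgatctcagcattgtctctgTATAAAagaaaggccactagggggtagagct
MMP7: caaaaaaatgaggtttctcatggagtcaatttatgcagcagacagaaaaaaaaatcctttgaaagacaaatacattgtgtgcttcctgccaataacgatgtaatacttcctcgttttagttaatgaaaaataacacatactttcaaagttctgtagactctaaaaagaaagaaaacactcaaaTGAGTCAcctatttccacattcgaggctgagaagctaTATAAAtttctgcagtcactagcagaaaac
MMP14: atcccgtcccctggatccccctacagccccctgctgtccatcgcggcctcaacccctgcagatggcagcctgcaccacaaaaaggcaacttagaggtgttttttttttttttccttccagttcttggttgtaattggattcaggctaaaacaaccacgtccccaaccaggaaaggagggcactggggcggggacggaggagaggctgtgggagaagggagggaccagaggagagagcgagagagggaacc
MMP10 and MMP7 each hold 1 AP-1 match, TGAATCA and TGAGTCA, at the same distance of 67 to 61 bases before the start, and a TATA box match about 30 bases before it. MMP14, MMP15, TIMP1 and TIMP3 hold neither in this window. AP-1 matches occur in 6.573% and TATA box matches in 10.72% of 35116 promoters of this length. The letters of a SMAD box (CAGACA), an ETS motif (AGGAAG) and an SP1 motif (GGGCGG) were searched as well. MMP7 holds a SMAD box match 212 to 207 bases before its start, and ETS matches at 169 to 164 and 145 to 140 bases. MMP14 holds an SP1 match, and MMP10 holds no match to these motifs. They occur in 13.61%, 28.71% and 42.64% of the promoters. A match describes the letters and is not a bound site.

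Genes of epithelial and mesenchymal cells also moved with TGFβ in SNU-449. Of 3 epithelial genes tested, CDH1 (E-cadherin) fell by 2.0 and KRT18 fell by 0.58 on the log2 scale, while KRT8 changed by 0.02 and did not pass. Of 6 mesenchymal genes CDH2 (N-cadherin), COL1A1 and FN1 rose by 0.93, 0.92 and 0.91. VIM, SPARC and ZEB1 changed by -0.33, 0.22 and -0.01 and did not pass. FN1 was near the floor in untreated cells, with a mean of -3.69, and was well above background there on 1 of 3 arrays. The summed signal of the epithelial list went from 72.1 to 86.6 times the 75th percentile in untreated cells to 53.2 to 56.3 times with TGFβ, and that of the mesenchymal list from 569 to 651 times to 648 to 671 times. Their part in the changes of the MMP genes was not tested.

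**Figure D3:**
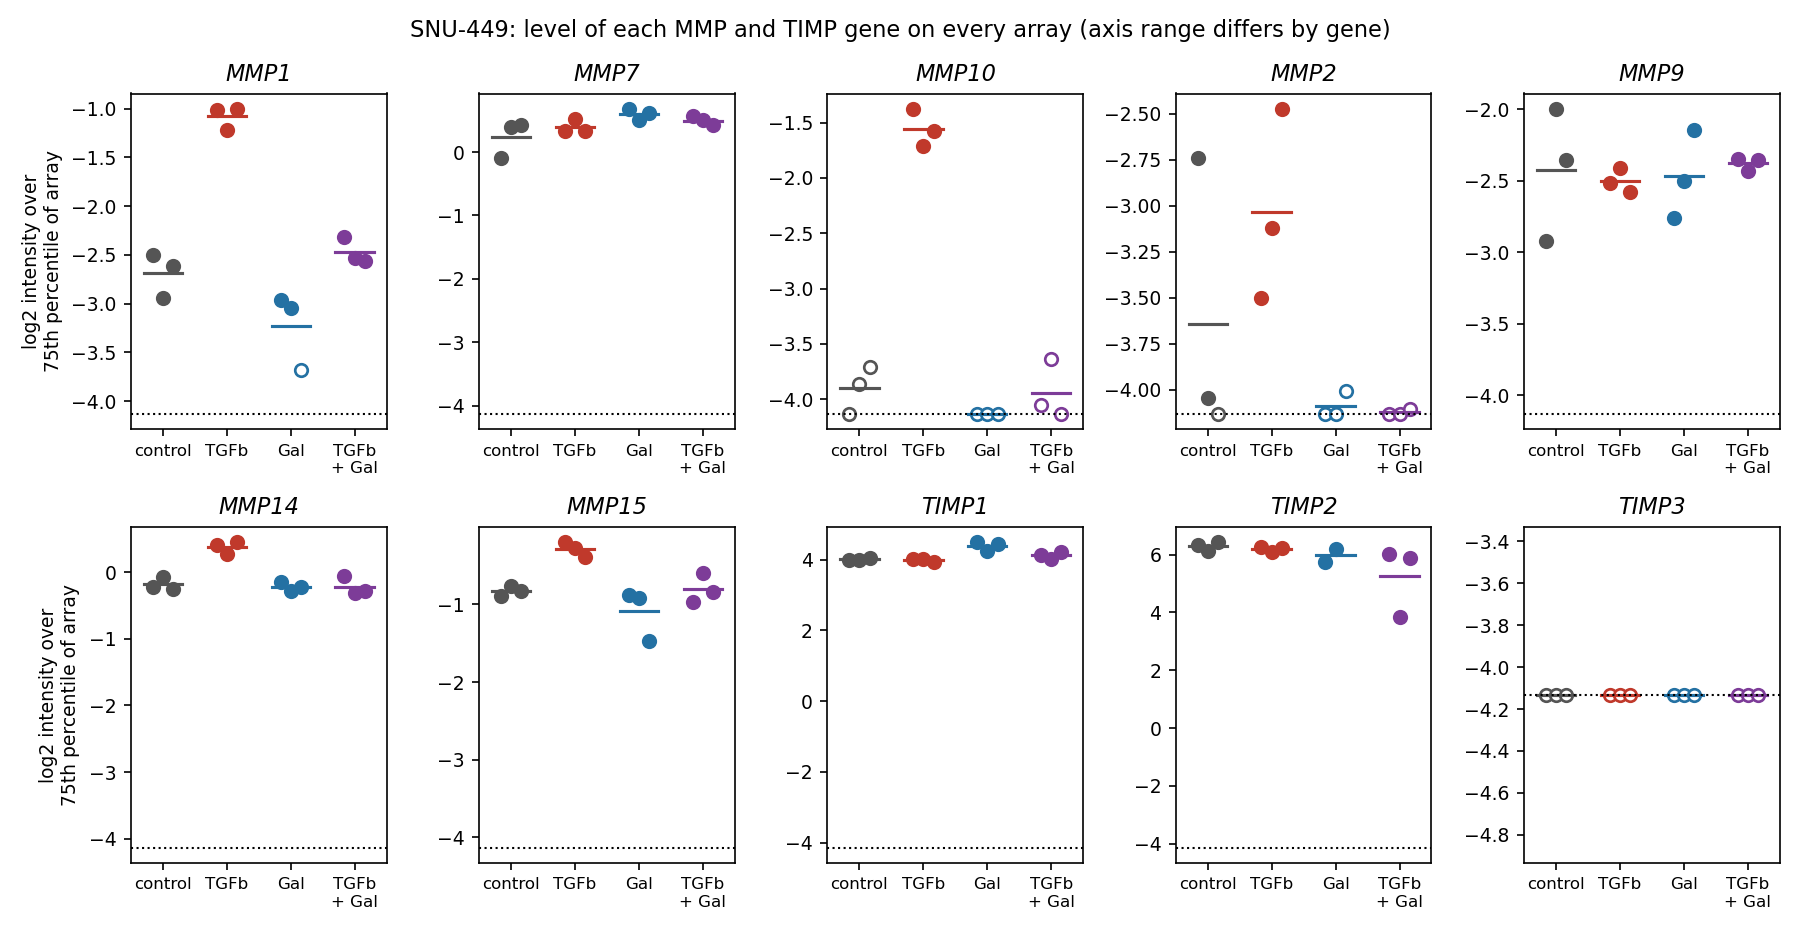
Levels of the 10 genes on the SNU-449 arrays by treatment, on a log2 scale relative to each array's 75th percentile. Points are single cultures, bars are means, open points were not well above background, the dotted line is the floor, and 1 TIMP2 spot with an outlier flag is left out. MMP10, MMP1 and MMP14 are highest with TGFβ alone and lie near the untreated level when galunisertib was added.

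Galunisertib added to TGFβ lowered the same 3 genes in SNU-449 that TGFβ had raised, and none of the 9 genes tested rose past the threshold. Both comparisons share the TGFβ arrays, so they are not independent. MMP10 and MMP2 were again tested only through these arrays, so the count is a description, and the SE and adjusted p of MMP10 understate the uncertainty. In this comparison 17.1% of all genes tested passed. MMP10 returned to -4.05, -3.63 and -4.13, none well above background, which is at least 5.04-fold below TGFβ alone (fitted log2 change -2.39, SE 0.15, limma adjusted p = 5.28e-06). MMP1 lay at -2.32, -2.53 and -2.56, below all 3 cultures given TGFβ alone, a fall of 2.63-fold (log2 change -1.39, SE 0.19, limma adjusted p = 0.000616). MMP14 lay at -0.06, -0.31 and -0.28 and was 1.51-fold lower (log2 change -0.59, SE 0.10, limma adjusted p = 0.00211). For each of these 3 genes, the range of the cultures given both agents overlapped that of the untreated cultures. Epithelial and mesenchymal genes moved here too, with log2 changes of 2.82 for CDH1, 0.57 for KRT18, -1.02 for CDH2, -1.90 for COL1A1 and -1.01 for FN1. FN1 was well above background on 0 of the 3 arrays given both agents. KRT8, ZEB1, SPARC and VIM changed by -0.12, -0.21, -0.15 and -0.12 and did not pass. With both agents the summed signal of the epithelial list was 74.4 to 80.4 and that of the mesenchymal list 375 to 500 times the 75th percentile, and their part in the changes was not tested.

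MMP15 and MMP2 came close to the threshold. MMP15 levels with both agents were -0.97, -0.59 and -0.84, below all TGFβ values (log2 change -0.51, SE 0.16, limma adjusted p = 0.0501). With the replicate number, which is also the slide, as a block, the adjusted p was 0.0461, on the other side of the threshold. With both agents, MMP2 was well above background on none of the 3 arrays and was at least 1.96-fold lower than with TGFβ alone, without passing (log2 change -1.09, SE 0.35, limma adjusted p = 0.0562). MMP15 passed without culture 2 given both agents (adjusted p = 0.0413), and MMP2 without TGFβ culture 1 (adjusted p = 0.0459). TIMP2 levels were 6.04, 3.84 and 5.87, of which the second stands far below every other SNU-449 value of this gene (log2 change -0.96, SE 0.48, limma adjusted p = 0.223). Without that array the TIMP2 change was -0.25. TIMP1 changed by 0.13, MMP7 by 0.10 and MMP9 by 0.12, and none passed.

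The design also allows asking whether the TGFβ effect itself differed when galunisertib was present. In SNU-449 this interaction passed for MMP10 alone among the 9 genes (log2 -2.15, SE 0.22, limma adjusted p = 0.000592), where 2.62% of all genes tested passed. Since MMP10 was not well above background without TGFβ or with galunisertib, the size of this value depends on the floor, and in the authors' normalized values it was 0.12 and did not pass (adjusted p = 0.959). The values for MMP1 and MMP14 were -0.85 (limma adjusted p = 0.145) and -0.55 (limma adjusted p = 0.0692), of which MMP1 passed without galunisertib culture 3 (adjusted p = 0.0217) and MMP14 without culture 1 given both agents (adjusted p = 0.0487). TGFβ added to galunisertib, against galunisertib alone, moved 0 of the 9 genes past the threshold, and 1.9% of all genes tested passed. In the methods' t-test after adjustment 0 passed. At an unadjusted limma p below 0.05 there were 2, a limit for which no share of all genes is given. MMP1 was the gene with the largest value there, 0.76 (SE 0.19, limma adjusted p = 0.0786). Its levels with galunisertib alone were -2.97, -3.05 and -3.69, all below the 3 cultures given both agents.

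Galunisertib alone raised TIMP1 in SNU-449 and moved no other of the 9 genes past the threshold, with 7.43% of all genes tested passing. TIMP1 levels were 4.49, 4.24 and 4.45, all above the untreated values of 4.0, 3.98 and 4.04. The change was 1.31-fold (log2 0.39, SE 0.09, limma adjusted p = 0.0289), and 0.26 to 0.49 within slides. It is a narrow pass, since leaving out single arrays took the adjusted p above the threshold in 5 of 6 fits, up to 0.0811, namely without each of the 3 untreated cultures and without galunisertib cultures 1 and 3. Scaling arrays to their median, or not at all, also lost the call (adjusted p = 0.382 and 0.495), as did the methods' t-test (0.141) and a fit of these groups only (0.156), and with normexp background correction the change was 0.09 (adjusted p = 0.466). MMP10, not well above background in either group, changed by -0.23 here (limma adjusted p = 0.375), whereas in the authors' normalized values it fell by 3.23 and passed (adjusted p = 0.02). MMP1 changed by -0.55 (limma adjusted p = 0.105), MMP7 by 0.36 (limma adjusted p = 0.13) and MMP15 by -0.26 (limma adjusted p = 0.343). TIMP2 had 2 usable galunisertib arrays, 5.76 and 6.19, because the spot of the third was flagged as an outlier by the scanner software, and its change was -0.33 (SE 0.54, limma adjusted p = 0.744).

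In PLC/PRF/5, 5 of the 10 genes were tested, namely MMP9, MMP15 and the 3 inhibitors. On none of the 12 arrays were MMP1, MMP2, MMP7 or MMP10 well above background, and MMP14 was so on 1. TGFβ moved 0 of the 5 past the threshold in limma, while 13.5% of all 16684 genes tested passed. In the methods' t-test after adjustment 0 passed. At an unadjusted limma p below 0.05 there was 1, a limit for which no share of all genes is given. TIMP1 had the lowest unadjusted p, with levels of -2.02, -2.56 and -2.44 in untreated cells and -2.66, -2.82 and -2.61 with TGFβ. These groups did not overlap, but the difference was small against the threshold (log2 change -0.36, SE 0.13, limma adjusted p = 0.0927). MMP9, MMP15, TIMP2 and TIMP3 changed by 0.17, 0.14, 0.02 and 0.31.

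Galunisertib alone raised TIMP1 in PLC/PRF/5 too, while 5.42% of all genes tested passed. TIMP1 levels were -1.72, -1.64 and -1.82, all above the untreated values. The change was 1.53-fold (log2 0.61, SE 0.13, limma adjusted p = 0.0235), and ranged from 0.30 to 0.91 within slides. Leaving out single arrays took the adjusted p above the threshold in 4 of 6 fits, up to 0.0809, namely without untreated cultures 2 and 3 and galunisertib cultures 1 and 2. Scaling arrays to their median, or not at all, also lost it (adjusted p = 0.112 and 0.504), as did the methods' t-test (0.2), a fit of these groups only (0.127) and no filter (0.052), and with normexp the change was 0.31 (adjusted p = 0.154). MMP15 reached 2.09, 1.88 and 1.85 and TIMP2 reached 4.33, 4.01 and 4.09, each without overlap with the untreated cultures. Neither passed, at a log2 change of 0.41 for MMP15 (SE 0.11, limma adjusted p = 0.0528) and 0.40 for TIMP2 (SE 0.11, limma adjusted p = 0.0556). Without untreated culture 1, the dimmest array of the line, the MMP15 change was 0.53 and passed (limma adjusted p = 0.0182).

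When galunisertib was added to TGFβ in PLC/PRF/5, TIMP1 and TIMP2 rose and MMP9 fell, 3 of the 5 genes, in a comparison in which 39.1% of all genes tested passed. TIMP1 levels with both agents were -2.15, -2.08 and -2.07, above all TGFβ values, which is 1.51-fold (log2 0.60, SE 0.13, limma adjusted p = 0.00396). TIMP2 levels were 4.56, 4.32 and 4.18 against 3.73, 3.80 and 3.75 with TGFβ alone, also 1.51-fold (log2 0.59, SE 0.11, limma adjusted p = 0.00157). MMP9 levels were -1.55, -1.58 and -1.22 against -1.05, -1.20 and -1.04, without overlap and 1.28-fold lower (log2 change -0.35, SE 0.11, limma adjusted p = 0.0297). The MMP9 call was lost without 4 of the 6 arrays in turn, TGFβ cultures 1 and 3 and cultures 1 and 2 given both agents, with an adjusted p of up to 0.102, with arrays scaled to their median (adjusted p = 0.543) or not at all (0.434), and with quantile normalization (0.0696), normexp (0.102), no filter (0.0648) and the methods' t-test (0.102). MMP15 and TIMP3 changed by -0.06 and 0.00.

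TGFβ added to galunisertib, against galunisertib alone, moved 0 of the 5 genes past the threshold in PLC/PRF/5, with 8.55% of all genes tested passing. In the methods' t-test after adjustment 0 passed. At an unadjusted limma p below 0.05 there were 3, a limit for which no share of all genes is given. MMP15 changed by -0.32 (limma adjusted p = 0.0809), TIMP1 by -0.37 (limma adjusted p = 0.0877) and TIMP3 by 0.60 (limma adjusted p = 0.138). TIMP3 levels with galunisertib alone were spread, at -2.57, -3.08 and -2.05, and without the third of these the change was 0.85 and passed (limma adjusted p = 0.0436). The interaction passed for 0 of the 5 genes in limma, where 8.76% of all genes tested passed. At an unadjusted limma p below 0.05, for which no share of all genes is given, there was 1 gene. That gene was MMP15, with a value of -0.46 (limma adjusted p = 0.0805), and without untreated culture 1 it was -0.58 (limma adjusted p = 0.0222).

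**Figure D4:**
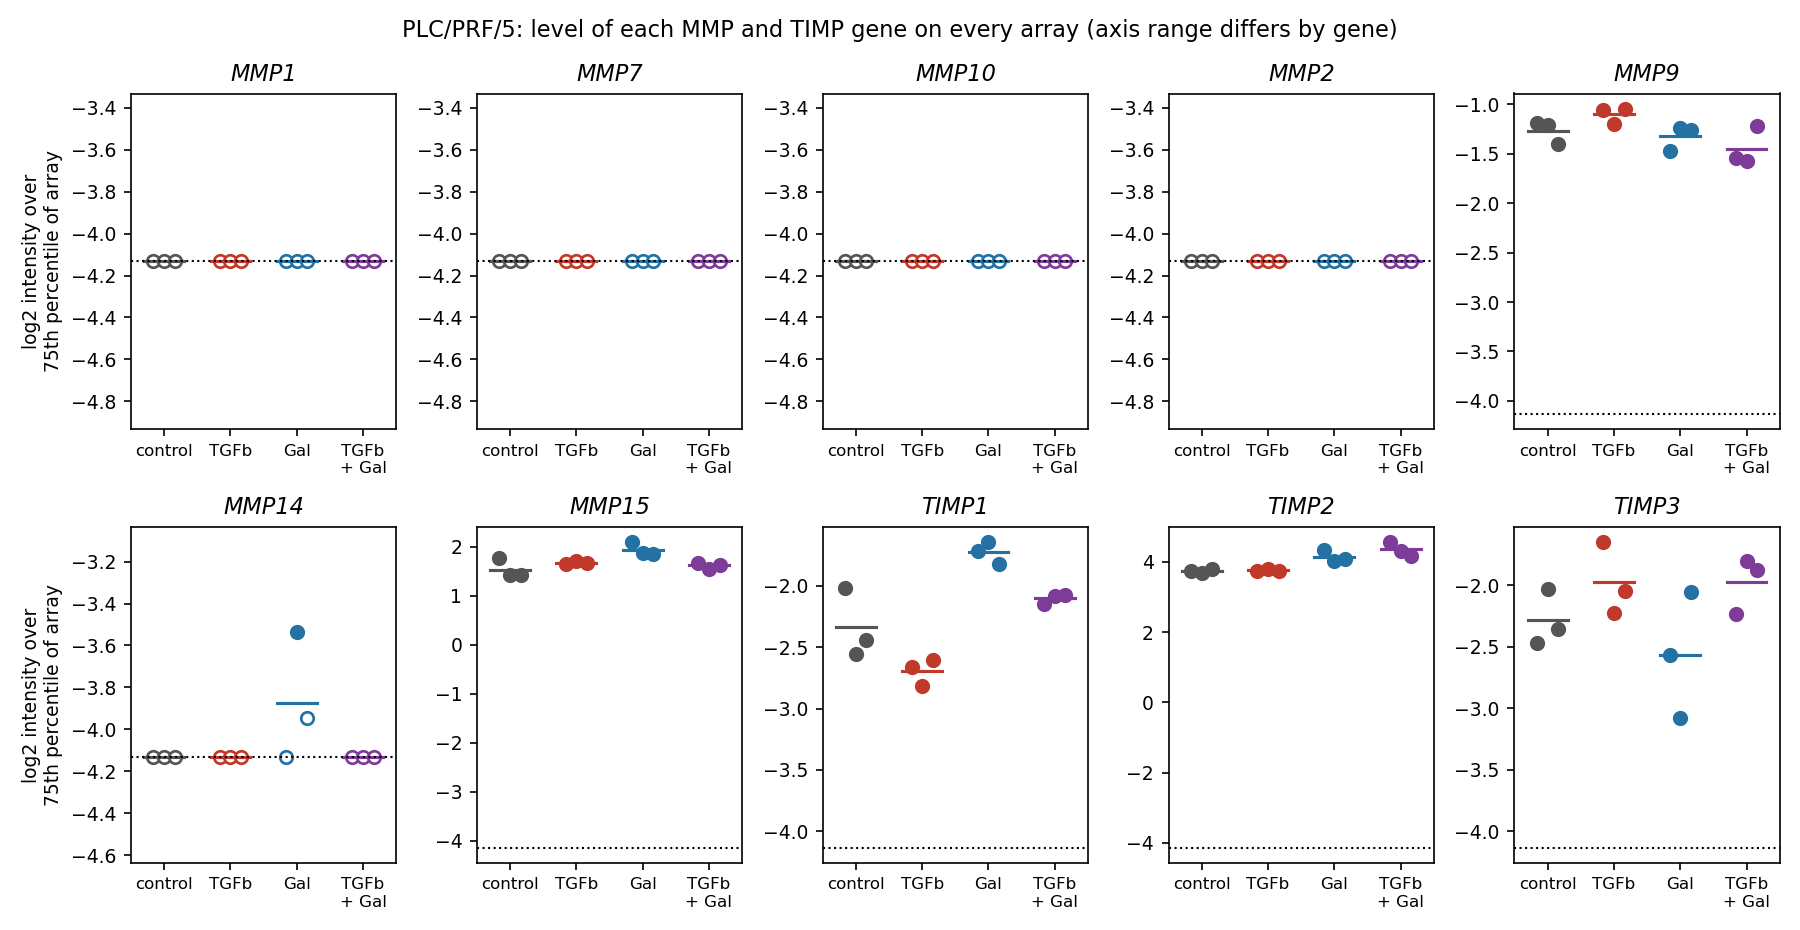
Levels of the 10 genes on the PLC/PRF/5 arrays by treatment, on a log2 scale relative to each array's 75th percentile. Points are single cultures, bars are means, open points were not well above background and the dotted line is the floor at -4.13. TIMP1 is highest with galunisertib alone, and MMP1, MMP2, MMP7 and MMP10 stay at the floor.

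Whether an effect differed between the lines was tested in 1 fit over all 24 arrays. For the TGFβ effect 8.62% of all genes tested passed. The differences of log2 changes were 2.35 for MMP10, 1.61 for MMP1 and 0.56 for MMP14, but all PLC/PRF/5 values of these genes in the groups compared were at the floor, so that they repeat the changes in SNU-449 and are no test between the lines. The inhibitors and enzymes measured in each line, TIMP1, TIMP2, MMP9 and MMP15, did not pass. The galunisertib effect differed for MMP15 (-0.66, SE 0.19, limma adjusted p = 0.0472), where 5.87% of all genes tested passed. MMP15 changed by 0.41 in PLC/PRF/5 and by -0.26 in SNU-449, neither of which passed by itself, and the difference passed in 3 of 12 fits without 1 array, those without PLC/PRF/5 untreated culture 1 or SNU-449 galunisertib culture 1 or 2, with an adjusted p of up to 0.119 in the others. TIMP1 changed in 1 direction in both lines with galunisertib, by 0.61 and 0.39, and its difference between the lines did not pass.

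**Figure D5:**
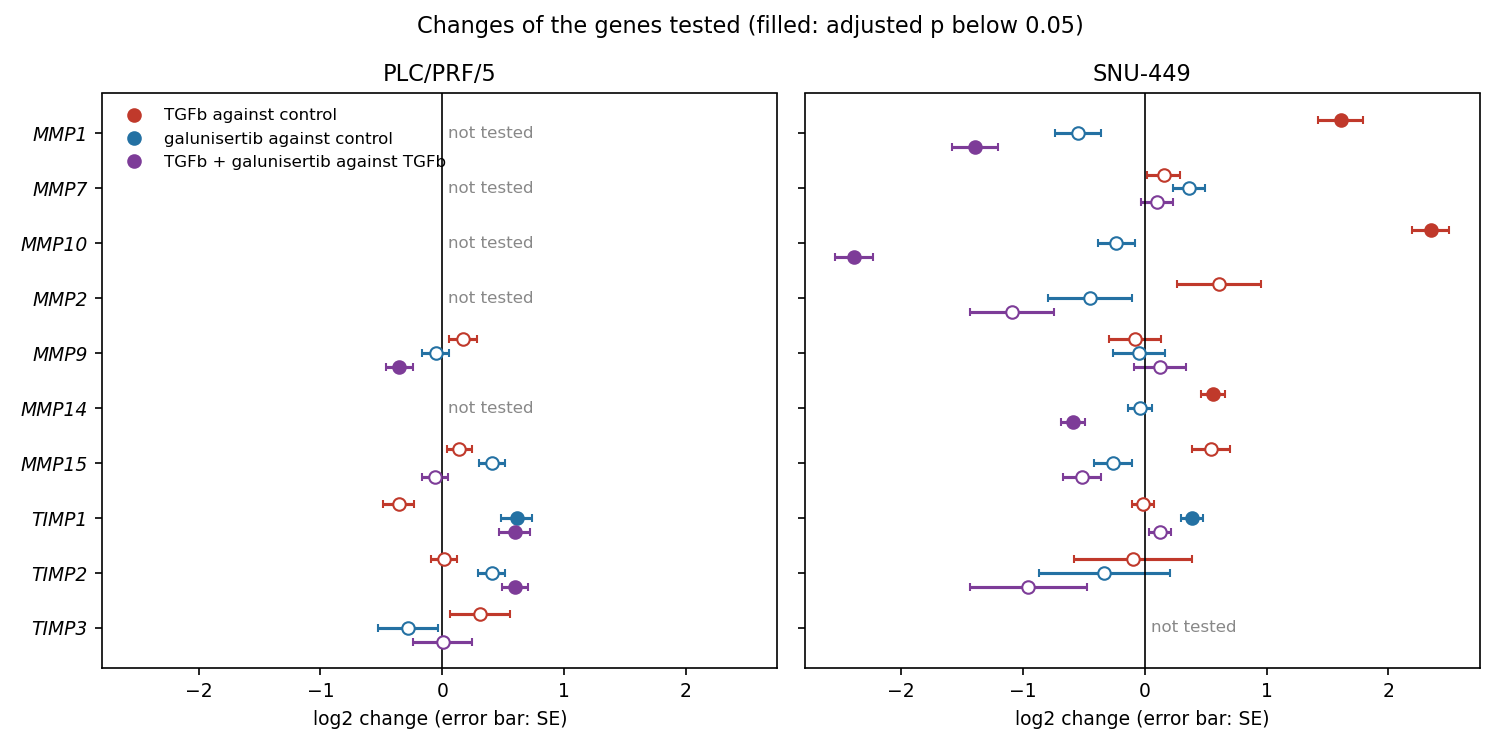
Log2 change of each gene with TGFβ, with galunisertib and with galunisertib added to TGFβ, in each line, with bars of 1 SE from limma. Filled points passed at an adjusted p below 0.05. In SNU-449 the points of MMP10, MMP1 and MMP14 lie at 2.35, 1.61 and 0.56 with TGFβ and at -2.39, -1.39 and -0.59 when galunisertib was added to it.

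The other MMP genes gave a background for these changes. Of 16 further MMP genes, 7 were tested in each line, of which 2 passed with TGFβ in SNU-449 and 1 in PLC/PRF/5, where 10.5% and 13.5% of all genes passed. In SNU-449 TGFβ raised MMP19, a secreted MMP found in many tissues, by 2.05-fold (log2 1.04, SE 0.17, limma adjusted p = 0.00325) and lowered MMP24 (MT5-MMP) by 0.76 on the log2 scale. In PLC/PRF/5 it raised MMP24 by 0.74, and the difference between the lines passed for both MMP24 (-1.50, limma adjusted p = 4.27e-05) and MMP19 (1.05). Galunisertib added to TGFβ raised MMP24 by 0.81 in SNU-449 and lowered it by 0.87 in PLC/PRF/5, where MMP23B also changed, by -0.71. MMP19 changed by only -0.20 in SNU-449 when galunisertib was added to TGFβ, and did not pass (limma adjusted p = 0.486). With TGFβ added to galunisertib, MMP19 changed there by 0.71 and did not pass either (limma adjusted p = 0.0708). Of the 23 MMP genes on the array, 7 were not well above background on any array, among them MMP3, MMP8 and MMP13.

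Inhibitors, activators and partners of MMPs were looked at next. Of 14 such genes, 11 were tested in SNU-449, where TGFβ raised 2 and lowered 1. SPOCK1, a secreted proteoglycan, rose by 2.92, FURIN, the protease that activates pro-MMP14 and other membrane-bound MMPs inside the cell, rose by 1.99, and PLAU (urokinase), which activates plasmin and through it several pro-MMPs, changed by -1.14 on the log2 scale. Galunisertib added to TGFβ changed them by -3.23, -2.25 and 1.54, and galunisertib alone raised PLAU by 1.49. In PLC/PRF/5, 2 of 9 tested rose with TGFβ and none fell, FURIN by 1.77 (limma adjusted p = 2.09e-06), and galunisertib added to TGFβ changed FURIN by -2.27, PLAUR (the urokinase receptor) by 1.72 and PLAT by 1.11. Between the untreated lines, 8 passed as higher in SNU-449 and 3 as lower, of 12 tested, where 68.5% of all genes passed. The 2 of 9 with TGFβ in PLC/PRF/5 stand beside 13.5% of all genes, and the 3 of 11 in SNU-449 beside 10.5%. The plasma protease inhibitor A2M exceeded its SNU-449 level by at least 1439-fold in PLC/PRF/5, and PLAU was 185-fold higher in SNU-449.

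The ADAM and ADAMTS enzymes are relatives of the MMPs that shed surface proteins and cut proteoglycans. Of 28 such genes, tests were possible for 17 in SNU-449 and for 14 in the other line. With TGFβ 2 rose and 2 fell in SNU-449, led by ADAM19, which was 6.33-fold higher (log2 2.66) and 9.65-fold lower again with galunisertib (log2 change -3.27). With TGFβ in PLC/PRF/5 2 rose and none fell, led by ADAMTS6, which was at least 2.94-fold higher, and galunisertib added to TGFβ raised 1 and lowered 4. These 2 and 5 of 14 stand beside 13.5% and 39.1% of all genes, and the 4 of 17 in SNU-449 beside 10.5%.

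Of 11 AP-1 and ETS factors known to act on MMP promoters, 10 were tested. In SNU-449 TGFβ raised 4 and lowered 1, with FOSB, JUNB and ETS2 higher by 1.72, 1.54 and 1.17, and galunisertib added to TGFβ raised 2 and lowered 5, with JUNB, FOSB and ETS2 changing by -2.24, -1.97 and -1.20. TGFβ raised 2 and lowered 3 in PLC/PRF/5, and only ETV4, at -1.03, changed by more than a fold of 2. Of all genes, 10.5% passed with TGFβ and 17.1% with galunisertib added to it in SNU-449, and 13.5% with TGFβ in PLC/PRF/5. JUNB was also lower with galunisertib alone in SNU-449 (log2 change -2.16).

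Genes whose levels followed those of the members were sought by Pearson's r over the 12 arrays of a line, as a description, since the arrays share the treatments. In SNU-449, the closest of 12705 genes to MMP10 were ACOX3, TP53I3 and SNORC (r = 0.99 each), and those closest to MMP1 were ELAPOR1, SIAH1 and TMEM268 (r = 0.98 each). Among those closest to MMP14 were ABAT (r = 0.98) and SBK1 (r = 0.97), and those closest to TIMP1 were MRPL10 (r = 0.97), LAMC1 and AKR7L (r = 0.96 each). In PLC/PRF/5, with 13275 genes searched, NOP2, ZNHIT2 and SRM (r = 0.94 each) were closest to TIMP1, and RCL1, SMIM29 and PSMB2 (r = 0.97 each) to TIMP2. Values at the floor on several arrays, as for MMP10, narrow what such an r can show.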

How the data were processed

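Total RNA was labelled with Cy3 and hybridised to Agilent one-colour arrays. The deposited scanner files come from Agilent Feature Extraction 10.7.3.1, per the submitters' processing notes. The processed signal in the files as deposited by the authors is an intensity after background subtraction, without normalization across arrays. A deposited table of normalized log2 values, made by the authors in GeneSpring, served as an alternative. Here, control and flagged spots were left out, spots of a probe were averaged, each array was divided by its 75th percentile, and values under 5.70% of it, the weakest signal well above background (median of the arrays), were raised to that floor before log2. Of 58201 probes, 31104 were named through RefSeq (assembly GRCh38.p14, names only) and 10719 by their LNCipedia long noncoding RNA names. Both kinds count among the named genes and in the shares of all genes tested. The brightest probe stood for a gene. Fits used limma 3.58.1 in R 4.3.3 (lmFit, eBayes) over the 12 arrays of a line, or all 24 between lines. The methods' t-test with random variance model is represented by a plain t-test among the alternatives. A fold above 2 with P below 0.001, the limits of the study, was applied to limma's unadjusted P. In SNU-449 it was met by 2 of the 10 genes for TGFβ and by 2 when galunisertib was added. Of all genes tested, 2.33% and 3.81% met it there. Between the untreated lines 8 of the 10 genes met it, beside 34.3% of all genes. In PLC/PRF/5, 0 met it with TGFβ, with galunisertib or with galunisertib added to TGFβ. The text names all 10 genes, and of each list the members with a fold above 2 that passed, up to 3 a comparison. MMP23B, MMP24, the galunisertib values of MMP19 and markers below that fold were named after their values were seen. Members, lists and tests were chosen with earlier results of these data known.

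The normexp alternative used median signals, since the scanner files hold no mean signal. Deviations from group means correlated within replicate numbers for TGFβ against control, at 0.175 to 0.296 in PLC/PRF/5 and 0.133 to 0.18 in SNU-449, so the numbers, which are also the slides, paired these samples. In the other comparisons at least 1 pair was not above 0.1. The number of arrays limits the precision. Some genes that the rules would name are not reported here.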

Additional observations from a re-analysis of the deposited data

Results flagged for a closer look

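In SNU-449, the TGFβ effect on MMP10 differed with galunisertib present, by -2.15 on the log2 scale (limma adjusted p = 0.000592), a value that rests on groups at or near the floor. The galunisertib effect on MMP15 differed between the lines by -0.66 in a test of the difference itself (limma adjusted p = 0.0472). The same fit put the TGFβ effect higher in SNU-449 by 2.35 for MMP10, 1.61 for MMP1 and 0.56 for MMP14, but the PLC/PRF/5 values of these genes were set to the floor in both groups, so these differences repeat the changes within SNU-449 and do not test the lines against each other.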

How the results depend on the processing

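Over 100 results (a gene in a comparison) and 2229 alternatives, 2110 kept their side of the threshold, 67 lost a call and 50 gained one. The other 2 reversed direction with a call in either fit. A change of direction where neither fit passed was counted as kept. For example, MMP9 with TGFβ in SNU-449 changed by -0.08, by up to 0.06 under other processing, and by -0.33 to 0.13 with single arrays left out. MMP1 and MMP10 passed with TGFβ, and with galunisertib added to it, in SNU-449 under all alternatives in which they could be tested, left-out arrays included, though their changes ranged from 0.77 to 1.74 and from 0.87 to 2.90 with TGFβ. Reversed were TIMP1 with galunisertib added to TGFβ in SNU-449 under normexp (-0.25, adjusted p = 0.0394, against 0.13) and the MMP10 interaction in SNU-449 in the authors' values (0.12, against -2.15). The cause was not tested. The numbers of members that passed changed by over 1.5 times as follows, while smaller shifts (TGFβ in SNU-449 from 3 to between 2 and 4, untreated lines from 8 to as many as 10, galunisertib added to TGFβ in PLC/PRF/5 from 3 to 2) also occurred. For galunisertib in PLC/PRF/5, 1 became 0 with the array median, no scaling, no filter, the methods' t-test and the groups of the contrast only, 3 with probes well above background on all arrays and 3 with a floor 2 times as high, and 0 to 2 with arrays left out. For galunisertib added to TGFβ in PLC/PRF/5, 3 became 1 with normexp and 0 without scaling. For TGFβ added to galunisertib there, 0 became 1 with normexp and 1 with the percentile over probes well above background, and 0 to 1 with arrays left out. For the interaction there, 0 became 1 with quantile normalization and 1 with that percentile, and 0 to 1 with arrays left out. For galunisertib in SNU-449, 1 became 0 with normexp, the array median, no scaling, the methods' t-test and the groups only, 2 in the authors' values (MMP10 added, -3.23), and 0 to 1 with arrays left out. With galunisertib on top of TGFβ in SNU-449, 3 became 5 with normexp, no scaling and the groups only. For TGFβ added to galunisertib there, 0 became 1 with a floor 2 times as high. For the interaction there, 1 became 2 with normexp, 0 in the authors' values, 0 with probes well above background on all arrays (6 tested), 0 with a floor at 50%, 3 with a floor 2 times as high, and 1 to 2 with arrays left out. Between untreated lines, 8 became 4 of 4 with probes well above background on all arrays. For the TGFβ effect between lines, 3 became 1 in the authors' values and 0 with that filter (4 tested). For galunisertib between lines, 1 became 0 with the array median, quantile normalization, no scaling, the percentile over probes well above background, no filter, a floor at 50% and the groups only, and 0 to 2 with arrays left out. In the authors' values the count stayed at 1, but there MMP10 passed (-3.55, limma adjusted p = 0.0143) and MMP15 did not (limma adjusted p = 0.0782). Fewer genes tested is part of the filter's own effect. With the replicate block, 1 of the 100 results changed its call (MMP15, adjusted p = 0.0461 against 0.0501) and no other. Keeping flagged spots, an alternative chosen after seeing the data, changed no count of members. Over all genes, array-median scaling moved the median log2 change between untreated lines from -0.06 to 0.28, and cut the genes passing with TGFβ in PLC/PRF/5 from 2254 to 484, and no scaling to 501. Probes at the floor limit what could be seen of MMP2 and MMP10.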
